A study of Mus musculus with 3 samples.

Results

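The glucocorticoid axis of mouse skin was followed through 7 genes among the 32285 features of the count tables. They comprised the receptor Nr3c1, the activating enzyme Hsd11b1 and 5 responsive genes, Zbtb16, Klf9, Fkbp5, Tsc22d3 and Sgk1. Members were chosen by name for their known roles, with earlier results of these data known, and matched by symbol to 1 Ensembl identifier each.

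Glucocorticoids are steroid hormones of the adrenal cortex that can also be regenerated inside peripheral tissues. In skin, Hsd11b1 turns the inactive 11-keto steroid back into corticosterone, with cofactor supplied by H6pd, whereas Hsd11b2 inactivates the hormone. Bound receptor leaves a chaperone complex built around Hsp90, enters the nucleus and acts at palindromic response elements. Among its targets, Fkbp5 encodes a co-chaperone that lowers the affinity of the receptor for hormone, Tsc22d3 encodes the anti-inflammatory leucine zipper protein GILZ, Sgk1 encodes a kinase that regulates ion transport and survival, and Zbtb16 and Klf9 encode zinc-finger transcription factors. In dermis the pathway is best known for restraining inflammation and collagen synthesis. Several of these targets also answer to other signals, such as serum, osmotic stress and the circadian clock.

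Single-cell transcriptomes were collected from full-thickness dorsal skin of wild type C57BL/6J mice, labelled female and 8 weeks old. The labelled age cannot be that of the irradiated mice at collection, because the irradiation alone lasted longer. Age at collection is not stated. The control library (CON) came from unirradiated skin. The UV library came from skin irradiated on alternate days over 12 weeks with UVB (3.5 mW/cm2) together with UVA (0.60 mW/cm2), and the Rux library from skin irradiated in the same way and given a 1.5% ointment of the JAK1/2 inhibitor ruxolitinib after each exposure. The study describes CON and UV skin as given the ointment base without drug, and tissue was taken 1 day after the last exposure. Each condition was represented by 1 library, and the number of mice behind a library is not stated. Differences between libraries therefore carry no test across animals. Intervals below are exact 95% intervals that cover counting error only, and a gene was called higher or lower when its level differed by at least 1.5-fold and averaged at least 10 CPM over the 3 libraries. CPM is the count of unique molecular identifiers (UMIs) of a gene scaled to the total of the class and library, the usual depth-corrected unit.

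After filtering, 10885 CON, 10327 UV and 9386 Rux cells were kept, with median depths of 7568, 7661 and 9443 UMIs. Libraries shared between 28 and 50 cell barcodes per pair. The transcripts went against the label of sex: Xist lay between 0.0912 and 0.118 CPM and the Y-linked Ddx3y between 110.4 and 122, in all 3 libraries. Clusters were built without the 7 genes and named from marker lists, and 9 classes held at least 100 cells in every library. These were fibroblast-like (FB-like), Schwann cell-like (SCH-like), pericyte-like (PCY-like), vascular and lymphatic endothelium-like (VEC-like, LEC-like), lymphocyte-like (LYM-like), myeloid-like (MYE-like), basal keratinocyte-like (KB-like) and hair follicle-like (HF-like) cells. All 8 fibroblast markers were higher in FB-like cells than in the remaining cells of every library, as were all markers of the other classes except in HF-like cells, where 8 of 12 were.

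According to GENCODE M21 on GRCm38, all 7 are protein-coding genes. Hsd11b1 lies at chr1:193221634-193264075 on the minus strand, Zbtb16 at chr9:48654297-48836222 on the minus strand and Klf9 at chr19:23141226-23168134 on the plus strand. Fkbp5 occupies chr17:28399094-28517527 on the minus strand, Tsc22d3 chrX:140539528-140600659 on the minus strand and Sgk1 chr10:21882184-21999903 on the plus strand. Promoter windows of 300 bases around annotated starts were available from RefSeq (GRCm38.p6) for 5 of the 7 genes, with 6 windows for Sgk1, 3 for Tsc22d3 and 1 each for Hsd11b1, Klf9 and Fkbp5. The full glucocorticoid response element, the half-site AGAACA followed after any 3 bases by its own reverse complement and so the same on both strands, was found in 3 of 32851 windows (0.00913%) of 27025 genes. 1 of the 3 was an Sgk1 window, shown here because it is the only window of these genes with a match, at chr10:21993640-21993939 on the plus strand, with the element in capitals and its first base at position -189 from the start site.

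Sgk1: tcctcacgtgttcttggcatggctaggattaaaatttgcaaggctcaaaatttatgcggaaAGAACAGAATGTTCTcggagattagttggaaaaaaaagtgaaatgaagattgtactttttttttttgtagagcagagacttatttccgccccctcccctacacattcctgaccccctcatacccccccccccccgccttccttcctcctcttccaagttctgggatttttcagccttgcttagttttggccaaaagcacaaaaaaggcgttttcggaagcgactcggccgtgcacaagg

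A looser form with the half-site GNACA, which includes the full one, was present in 156 windows (0.475%), and among the 12 windows of these genes only in the same Sgk1 window. The libraries read the 3′ end of transcripts and do not tell which of the 13 annotated Sgk1 transcripts was made, so the level of Sgk1 below is summed over all its starts.

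The receptor Nr3c1 was detected in every class of the 9 and was highest in LYM-like cells. There it reached 759.7 CPM in CON, 856 in UV and 919 in Rux. The class pooled cluster 17 (1139, 1146 and 1142 in the same order) with cluster 33 (332, 261 and 329). Cluster 17 made up 54.7% of CON, 76.4% of UV and 81.7% of Rux LYM-like cells. In FB-like cells it stood at 122, 114 and 123 in the same order, and in HF-like cells, the lowest class in each library, at 41.3, 40.3 and 33.0. Between these extremes the classes lay close together: in CON the intervals of neighbouring classes overlapped all the way from VEC-like cells (164) down to PCY-like cells (108). None of the 9 classes reached 1.5-fold for the receptor in any comparison. The widest ratio was 0.40 on the log2 scale, in PCY-like cells of Rux over CON.

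Hsd11b1, the activating enzyme, was far more restricted. FB-like cells held 94.2 CPM in CON, 71.3 in UV and 83.7 in Rux. After thinning every cell to 2000 UMIs, 15.9% of CON, 12.0% of UV and 14.3% of Rux FB-like cells had at least 1 Hsd11b1 UMI, against 0.673%, 0% and 0.532% of HF-like cells (unthinned 32.0%, 28.5% and 39.2% against 2.68%, 2.42% and 5.29%, at median depths of 6044.5, 7273 and 9679 against 20579.5, 20968 and 25027 UMIs). Fibroblast RNA free in the suspension would give a class Hsd11b1 in the ratio to Col1a1 that fibroblasts have. VEC-like, KB-like, PCY-like and SCH-like cells held between 0 and 5.57 CPM, of the order of the 0.899 to 9.04 that this ratio gave for them, and are read as background. The 0 of SCH-like Rux cells allows up to 7.86 CPM. HF-like cells held 2.96, 0.934 and 1.95 (23, 11 and 22 UMIs), where the ratio gave 0.641, 1.16 and 1.07, and are left unassigned.

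LYM-like cells stood clear of that background. They held 46.5, 57.5 and 55.4 Hsd11b1 CPM in CON, UV and Rux, where the Col1a1 ratio gave 2.12, 1.80 and 2.41. Neutrophil-like cells, a class with only 50, 22 and 228 cells, were higher still at 319.7, 249 and 293, from 41, 11 and 223 UMIs. Muscle progenitor-like cells, with 154, 52 and 33 cells, held 129, 173 and 157. The unnamed cluster 5, led by Gdf10, Mgp and Cst3, held 150 (235 UMIs), 134 (176 UMIs) and 140.3 (180 UMIs). Its highest-scoring marker list was that of fibroblasts, with all 8 markers detected, at 0.25 of the median depth of its libraries. It is therefore not counted as a population apart from fibroblasts. In mast cell-like cells no Hsd11b1 UMI was counted in any library, which allows up to 36.4, 7.03 and 4.76 CPM. At lower levels, LEC-like cells held 11.1, 14.1 and 13.0 (68, 62 and 32 UMIs), where the Col1a1 ratio gave 2.502, 1.16 and 1.53, and MYE-like cells held 12.3, 8.75 and 6.93 (24, 18 and 28 UMIs), where it gave 1.84, 1.57 and 2.15. Within the MYE-like class, cluster 20 held 5.04, 3.81 and 2.21 (7, 5 and 3 UMIs) and cluster 21 held 30.6, 17.5 and 9.33. Sebaceous gland-like cells, numbering 118, 103 and 19, held 0.812, 6.13 and 23.4 (3, 20 and 12 UMIs). The Col1a1 ratio gave 0.973, 1.67 and 1.14 for them. Besides FB-like cells, activating-enzyme transcripts were thus above the level of free fibroblast RNA in LYM-like, LEC-like, MYE-like, neutrophil-like and muscle progenitor-like cells. In sebaceous gland-like cells they were above it in UV and Rux only. In all of these except MYE-like and sebaceous gland-like cells the level of the class stayed within 1.5-fold between libraries. Inside the LYM-like class, cluster 17 held 32.0, 34.6 and 40.0. Cluster 33 held 62.9, 105 and 96.0 (47, 53 and 60 UMIs), with both irradiated libraries more than 1.5-fold above CON.

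Hsd11b2, which inactivates the hormone, showed a large difference in keratinocytes. Over all keratinocyte clusters it was at 18.4 CPM (1590 UMIs) in CON, 1.90 (98 UMIs) in UV and 0.763 (32 UMIs) in Rux. Its average there lay below the minimum average CPM for a call, so it was not called over these clusters. In KB-like cells the values were 41.3, 3.80 and 1.70, a log2 ratio of -3.42 (interval -4.07 to -2.87) for UV over CON. KB-like Hsd11b2 met the minimum average CPM for a call only through its CON level, since UV and Rux each lay below that minimum. The order of CON, UV and Rux from high to low also held inside the 3 single clusters that follow. Cluster 16, the larger KB-like cluster of CON and UV, which was led by Gm973, Shisa2 and Krt15, had 49.8, 5.60 and 3.69. The unnamed cluster 6, a cycling group led by Itga2, Hist1h1b and Anln, had 24.0, 2.14 and 1.03, and the unnamed cluster 15, led by Cenpf, Hist1h2ae and Lhx2, had 37.2, 4.95 and 0.639, the last from 1 UMI in 45 cells. Both irradiated libraries were thus below CON in these 3 clusters, with intervals that did not meet.

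H6pd, the source of cofactor for Hsd11b1, was close to its CON level in FB-like cells of UV (52.0 and 48.8 CPM) and higher in Rux (71.1), a log2 ratio of 0.54 for Rux over UV that stayed below 1.5-fold. The mineralocorticoid receptor Nr3c2, which binds the same hormone, was highest in lymphatic endothelium among the classes examined for it, with 233, 194 and 233 in LEC-like cells against 72.8, 65.0 and 42.7 in VEC-like and 25.4, 24.3 and 20.8 in FB-like cells.

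The 5 responsive genes were spread over skin in different orders. Zbtb16 was highest in FB-like cells of every library, at 276, 207 and 275 CPM, and lowest in HF-like cells, at 6.30, 3.31 and 8.05. In CON the VEC-like level of 253 overlapped that of FB-like cells. Klf9 was led by PCY-like and SCH-like cells: SCH-like cells held 1003, 1101 and 1444 and PCY-like cells 1008, 772 and 909.9, with FB-like cells next at 829.8, 628 and 710.5. LYM-like cells, where the receptor was highest, had only 52.2, 33.6 and 44.8 Klf9 CPM. Free fibroblast RNA at the Col1a1 ratio would give these cells 18.7, 15.9 and 20.4 Klf9 CPM. For Zbtb16 it would give 1.88, 3.37 and 3.51 in HF-like cells and 5.38, 4.57 and 7.06 in MYE-like cells.

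Fkbp5 was highest in vascular endothelium, with 359, 214 and 232 CPM in VEC-like cells against 145, 116 and 138 in FB-like cells. Tsc22d3 was led by FB-like cells in CON (277) and by SCH-like cells in UV (299) and Rux (372). Sgk1 was highest in endothelium in CON and UV, at 689 and 536 in LEC-like and 524 and 673 in VEC-like cells. In Rux, VEC-like cells still led at 739.9, and FB-like cells came second at 609. HF-like cells were lowest for Fkbp5, Tsc22d3, Zbtb16 and Nr3c1 in every library, yet carried 268, 179 and 157 Sgk1 CPM.

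**Figure D1:**
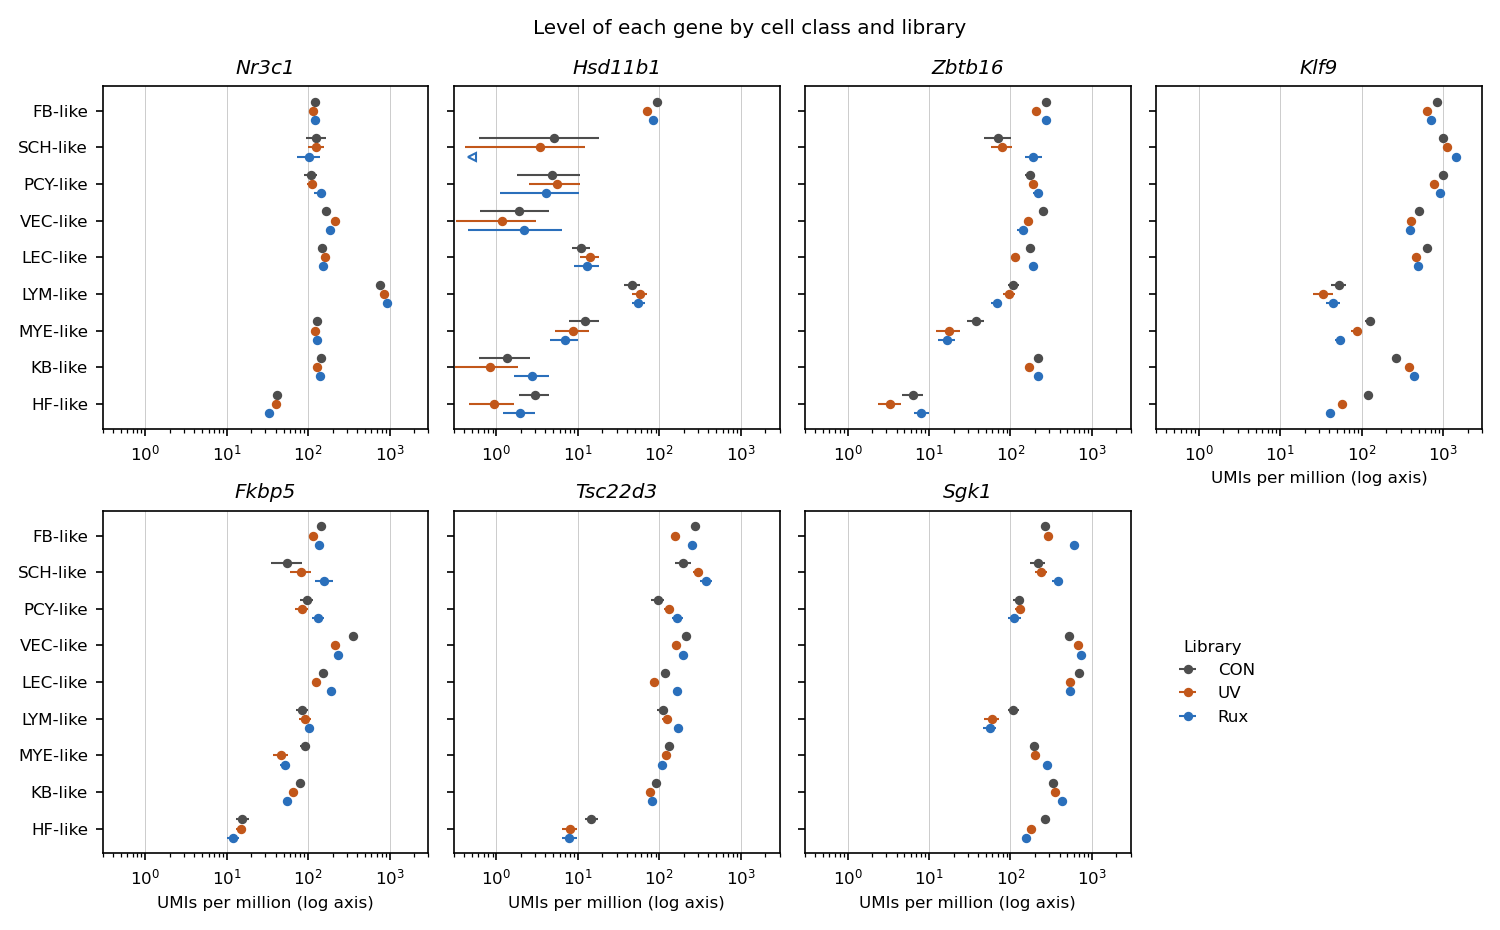
Level of each of the 7 genes (CPM, log axis) in 9 cell classes; points are the CON, UV and Rux libraries, bars are exact Poisson 95% intervals (cut at the left edge of the axis) and an open triangle marks a count of 0. Nr3c1 stands highest in LYM-like cells, Hsd11b1 in FB-like and LYM-like cells, and Sgk1 of FB-like cells is separated between Rux (609) and the other libraries (262 and 289).

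For each gene, the 3 genes closest to it over the 27 class-by-library levels were listed from 13872 genes by Pearson's r of log2(CPM + 1). These points share libraries and cell classes, so r is a description. Nr3c1 lay closest to Mbnl1 (0.949), Tecpr1 and Nmrk1, and Hsd11b1 to Gldc (0.870), Tmsb10 and Cd164. Zbtb16 lay closest to the circadian repressor Nr1d2 (0.932), Arrdc3 and Ifi27, and Klf9 to Tcaf1 (0.962), Mpdz and Nfic. Fkbp5 was paired with the endothelial factor Klf2 (0.901), Slc50a1 and Mlxip, Tsc22d3 with P4ha1 (0.932), Ctso and Trim35, and Sgk1 with Emp1 (0.869), Cgnl1 and Ubtd1. No member was among the 3 closest genes of another member.

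Irradiated skin was first compared with control skin in FB-like cells, which numbered 3324 in CON, 4939 in UV and 4584 in Rux. Tsc22d3 was at 277 CPM (interval 269.8 to 284) in CON, 154 (150.02 to 158) in UV and 256 (251 to 260.1) in Rux. The UV library was the low one, and the CON and Rux intervals did not meet either. Its log2 ratio of -0.85 (-0.90 to -0.79) for UV over CON made it the only 1 of 7 genes called lower, where 7.67% of all 8176 tested genes were, and none was called higher, where 6.46% of all genes were. Of the remaining genes Hsd11b1 (-0.40), Zbtb16 (-0.41), Klf9 (-0.40), Fkbp5 (-0.32) and Nr3c1 (-0.09) were all below 0 and Sgk1 (0.14) above it. The median over the 7 genes was -0.40, beside -0.09 over all tested genes. These directions depended in part on the make-up of the FB-like cells. With the subclusters described below weighted as in CON, Zbtb16 (0.28) and Nr3c1 (0.15) were above 0. Klf9 (-0.26), Hsd11b1 and Fkbp5 stayed below it.

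Skin treated with ruxolitinib was then compared with irradiated skin. Sgk1 was at 262 CPM (256 to 269) in CON, 289 (284 to 295) in UV and 609 (602 to 616) in Rux, so that the Rux library stood apart from the other two. Its log2 ratio for Rux over UV was 1.07 (1.04 to 1.11), and that of Tsc22d3 was 0.73 (0.69 to 0.78). These 2 of 7 genes were called higher, where 3.14% of all genes were, and none was called lower, where 5.28% of all genes were. All 7 ratios were above 0, with Zbtb16 at 0.41, Fkbp5 at 0.24, Hsd11b1 at 0.23, Klf9 at 0.18 and Nr3c1 at 0.10. Their median was 0.24, beside 0.01 over all tested genes. With the subclusters described below weighted as in CON, the Sgk1 ratio became 0.44, below 1.5-fold, while the Tsc22d3 ratio of 0.60 stayed past it. Zbtb16 (0.89) and Fkbp5 (0.71) newly passed 1.5-fold under this weighting and had larger ratios than Tsc22d3. At 2-fold, Sgk1 alone was higher for Rux over UV (0.856% of all genes were) and no member was lower for UV over CON (2.01% were).

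Treated skin was last compared with unirradiated skin. Over all FB-like cells together, the log2 ratio of Sgk1 for Rux over CON was 1.22 (1.17 to 1.26), the only 1 of 7 called higher, where 7.4% of all genes were. None was called lower, where 10.3% of all genes were, and the other 6 genes lay between -0.22 (Klf9) and 0.01 (Nr3c1). With subclusters weighted as in CON, Zbtb16 and Fkbp5 also passed 1.5-fold, and Zbtb16 had the largest ratio (1.17, against 0.72 for Sgk1). The shares of all genes above are for the unweighted sums. These 3 comparisons share libraries pairwise, so a low UV value enters 2 of them.

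Shares of FB-like cells also put Tsc22d3 lowest in UV and Sgk1 highest in Rux. After thinning to 2000 UMIs, 35.4% of CON, 22.7% of UV and 33.4% of Rux FB-like cells had a Tsc22d3 UMI, beside 4.71%, 2.01% and 3.46% of HF-like cells. Unthinned, the Tsc22d3 shares were 60.0%, 44.3% and 63.6% against 26.5%, 16.1% and 17.2%, with Rux above CON in FB-like cells, unlike the levels. For Sgk1 the thinned shares of FB-like cells were 32.3%, 31.5% and 48.9% (unthinned 58.0%, 57.0% and 77.2%), so that CON and UV lay close together and not in the order of their levels. HF-like cells gave 35.4%, 24.6% and 26.6% for Sgk1, which they also express.

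**Figure D2:**
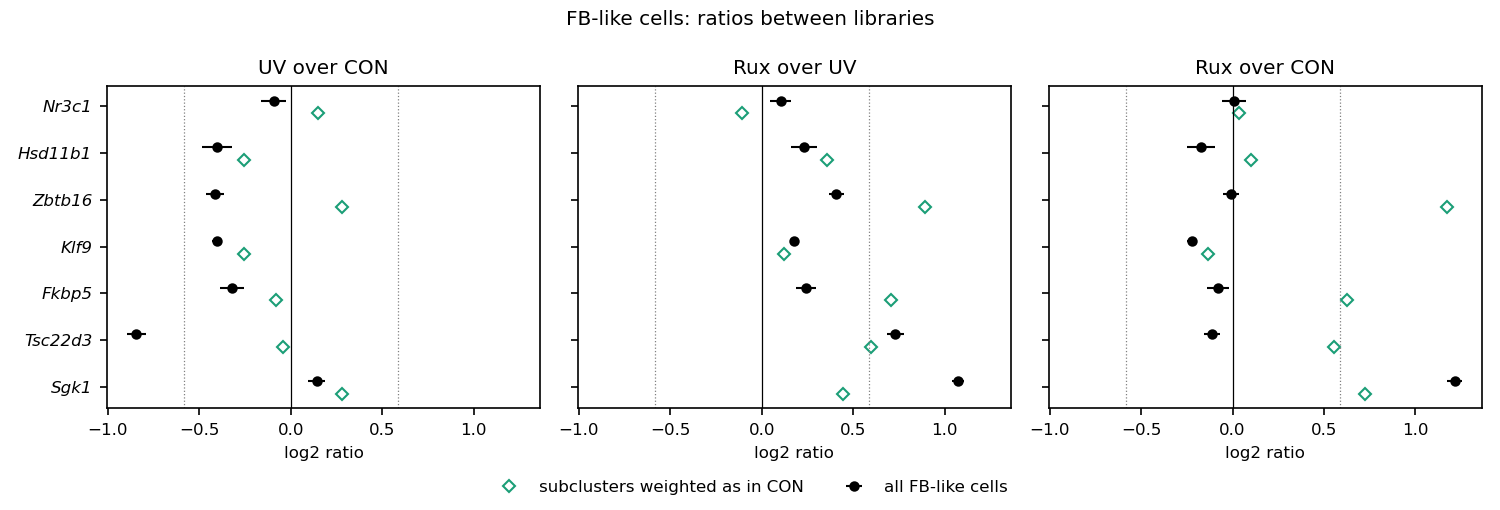
log2 ratios of the 7 genes between libraries in FB-like cells; filled circles with exact 95% counting intervals use all FB-like cells, open diamonds use the same subcluster proportions as CON in every library, and dotted lines mark 1.5-fold. Tsc22d3 in UV over CON moves from -0.85 to -0.04 and Zbtb16 in Rux over CON from -0.01 to 1.17 between the 2 ways of averaging.

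FB-like cells fell into 12 subclusters, again built without the 7 genes, and their proportions differed strongly between libraries. Subcluster 0, led by Socs3, Gadd45g and Cebpd, held 46.7% of CON but 8.42% of UV and 5.54% of Rux FB-like cells. Subcluster 8, led by the acute-phase genes Saa3 and Hp, held 9.03% of Rux cells, 0.263% of UV cells and no CON cell. Subcluster 9 was led by the endothelial gene Pecam1 and held 4, 246 and 171 cells.

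The 7 genes marked these subclusters unevenly, and libraries were ranked one by one over subclusters with at least 50 of their cells. Zbtb16 was highest in subcluster 7, led by Rasgef1c and Gm12381, in CON (806 CPM) and UV (663), and in subcluster 0 in Rux (1140.3). Fkbp5 was highest in subcluster 7 in every library, at 284, 262 and 396. Hsd11b1 and Tsc22d3 were highest in subcluster 11, led by Coch and Fmod, in UV (241 and 579.7) and Rux (283 and 951). In CON, where subcluster 11 held too few cells to be ranked, Hsd11b1 was highest in subcluster 2 (173) and Tsc22d3 in subcluster 0 (363). Sgk1 was highest in subcluster 2 in CON (375) and UV (529.9) and in subcluster 8 in Rux (1005), and lowest in subcluster 7 in every library, at 103, 101 and 107.

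**Figure D3:**
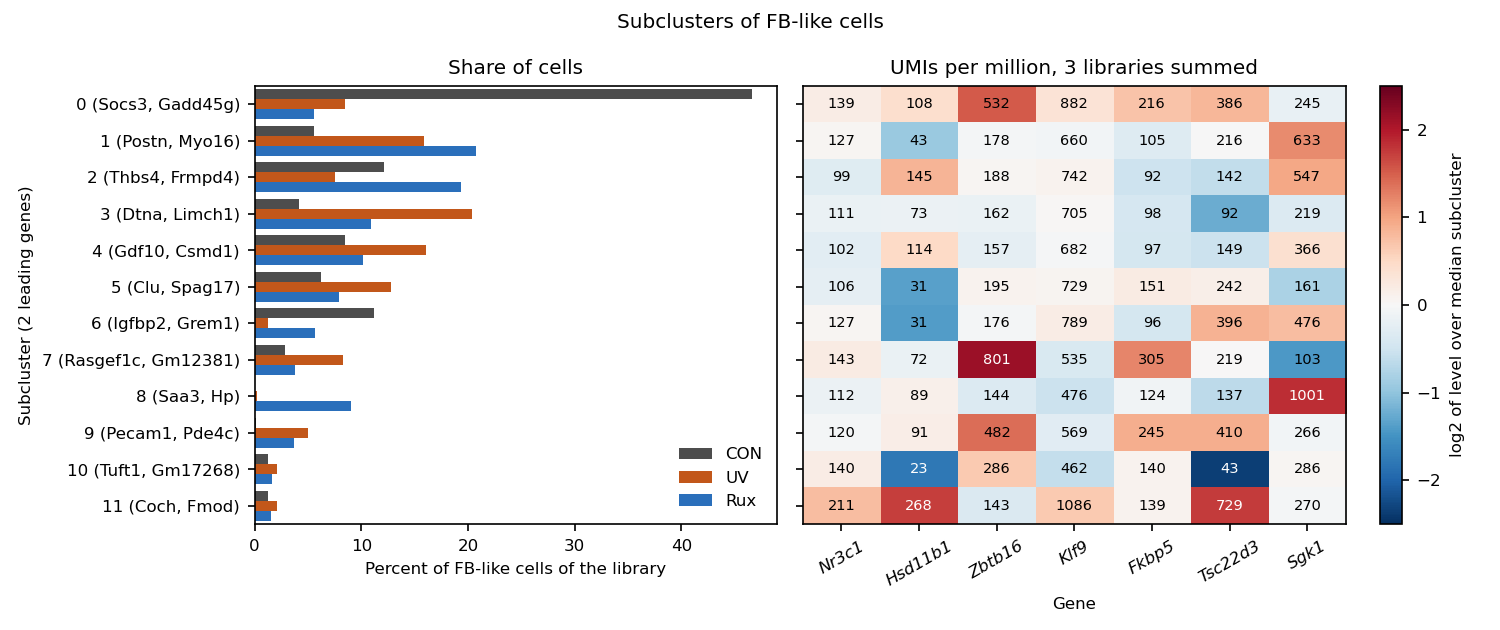
Left, share of each library's FB-like cells in each of 12 subclusters (percent); right, level of each gene per subcluster with the 3 libraries summed (CPM as numbers, colour as log2 of the level over the median subcluster). Subcluster 0 holds 46.7% of CON cells and has high Zbtb16 (532) and Tsc22d3 (386), and subcluster 8, almost all Rux, has the highest Sgk1 (1001).

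Because the make-up differed, the libraries were compared again inside each subcluster with at least 50 cells on both sides. For Rux over UV, which had 11 such subclusters, Tsc22d3 was higher in 11 of 11 with an interval above 0 in every one, at a median log2 ratio of 0.89. Fkbp5 was higher in 11 of 11 (9 intervals above 0, median 0.59), Sgk1 in 11 of 11 (9 intervals, median 0.54) and Zbtb16 in 10 of 11 (10 intervals, median 0.80). Nr3c1 was higher in 7 of 11, with a median of 0.04. With the FB-like cells split at resolution 0.3 in place of 0.5, Tsc22d3 and Fkbp5 were higher in 10 of 10 subclusters. Zbtb16 and Sgk1 were each higher in 9 of 10, and the low Sgk1 value of -0.23 had an interval below 0. Subclusters of 1 library share its animals, so these counts describe how widely a difference was spread and are not replicates.

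Inside subclusters, Tsc22d3 differed less between UV and CON than it did overall. It was lower in 5 of 8 subclusters, with 4 intervals below 0, and its median ratio was -0.19. It ranged from -1.0 in subcluster 3, led by Dtna and Limch1, to 0.72 in subcluster 7. Klf9 was the steadiest, lower in 7 of 8 with 7 intervals below 0 and a median of -0.20. The medians of Sgk1 (0.23) and Nr3c1 (0.15) lay further from 0 than the ratios over all FB-like cells (0.14 and -0.09). Every library was then given the CON proportions over the 10 subclusters that held 20 or more cells of every library. The Tsc22d3 ratio of UV over CON became -0.04 and no gene was called lower. Subcluster 0, with 46.7% of CON but 8.42% of UV FB-like cells, carried the most weight and had a Tsc22d3 ratio of 0.06. The intervals below 0 were in subclusters 1 (-0.65), 3 (-1.0), 4 (-0.44) and 5 (-0.36), each a larger share of UV than of CON. The 1 interval above 0 was in subcluster 7. With subcluster 0 left out and no weighting, the ratio of Tsc22d3 stayed past 1.5-fold.

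For Rux over CON, the same weighting put 3 genes past 1.5-fold: Zbtb16 (1.17), Sgk1 (0.72) and Fkbp5 (0.63). The shares of all genes given above are for unweighted sums, so they are no reference for the weighted ratios. Over 8 single subclusters the median ratio was 0.39 for Zbtb16, 0.71 for Sgk1 and 0.13 for Fkbp5. Fkbp5 had an interval above 0 in 3 of 8, and its highest ratio, 0.91, was in subcluster 0. Tsc22d3, at 0.55 under the weighting, was higher in 8 of 8 with a median of 0.53. In subcluster 0 alone, Zbtb16 stood at 403 CPM in CON, 601 in UV and 1140.3 in Rux. Fkbp5 stood at 193, 206 and 362 there, and Tsc22d3 at 363, 378 and 533. Rux was the high library for these 3 genes within that subcluster, although in all FB-like cells together Rux and CON were nearly level for Zbtb16 and Fkbp5.

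**Figure D4:**
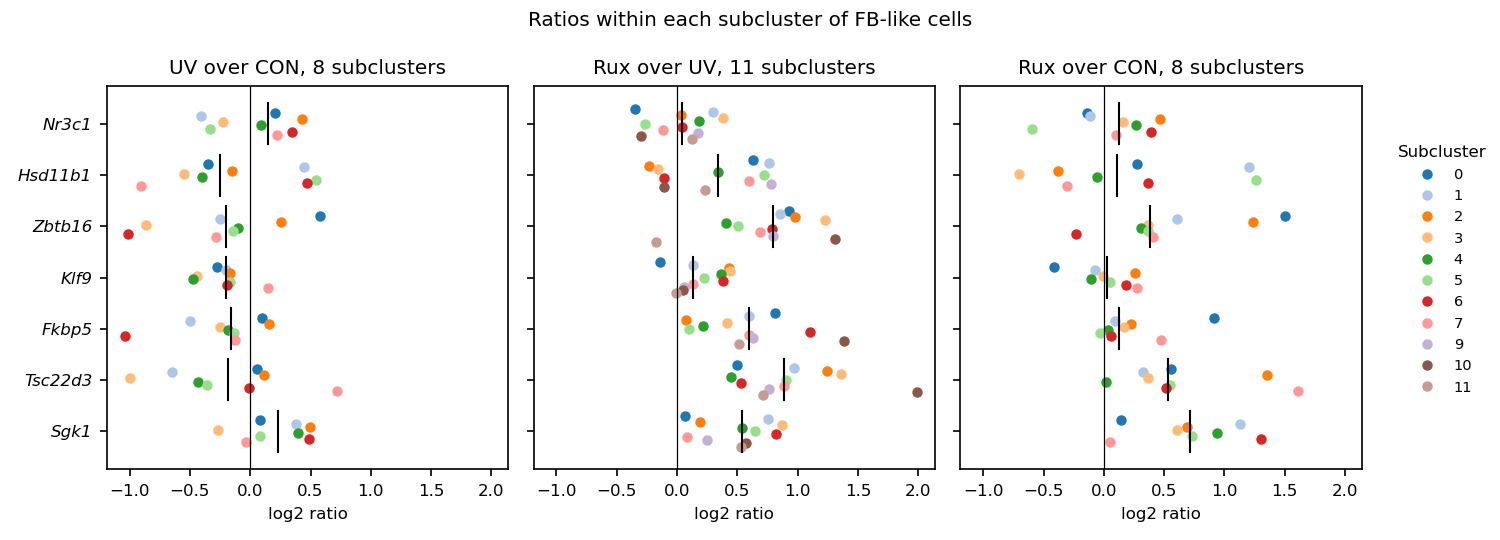
log2 ratios of the 7 genes within single FB-like subclusters (points, coloured by subcluster) for 3 comparisons; black bars are medians over subclusters. For Rux over UV at resolution 0.5, every point of Fkbp5, Tsc22d3 and Sgk1 lies above 0, with medians of 0.59, 0.89 and 0.54.

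Genes induced by tissue dissociation differed between libraries too. Over FB-like cells the summed level of 16 dissociation and immediate-early genes was 24353 CPM in CON, 11478 in UV and 12078 in Rux. Of these, 13 of 16 were called lower in UV than in CON (7.67% of all genes), with Egr1 at -1.59, Nr4a1 at -1.54 and Zfp36 at -1.51, and Fosb (-0.06), Dnajb1 (-0.20) and Jun (-0.56) nearest to 0. In subcluster 0 their sum was 32282, 22858 and 11676, in subcluster 2 it was 9323, 8065 and 12305, and in subcluster 3 it was 22798, 6952 and 9801. Their part in the differences of the 7 genes was not tested.

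Other glucocorticoid-induced genes did not move as a block. In FB-like cells 20 of 26 could be tested, and 12 were called lower and 2 higher in UV than in CON, at a median of -0.67, beside 7.67% and 6.46% of all genes and their median of -0.09. The lowest were Zfp36 (-1.51), Rgs2 (-1.45) and Cebpd (-1.23), and the highest Ampd3 (2.22), Angptl4 (0.68) and Il1r2 (0.36). Between Rux and UV, 6 were called higher and 3 lower, at a median of -0.11, beside 3.14% and 5.28% of all genes and their median of 0.01. Angptl4 (0.98), Lpin1 (0.75) and Nfkbia (0.74) had the highest ratios, and Mt2 (-0.85), Cebpd (-0.84) and Mt1 (-0.60) the lowest. The clock gene Per1, also an early receptor target, was at 99.3 CPM in CON, 49.6 in UV and 79.8 in Rux, the same low-UV order as Tsc22d3. Several genes of this list, such as Zfp36, Cebpd and Mt1, are also induced by dissociation or cytokines.

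Among 14 circadian clock genes tested in FB-like cells, 5 were called lower and 1 higher in UV than in CON (7.67% and 6.46% of all genes). Their median was -0.45, and the clock levels that follow are also those of FB-like cells. Arntl, the activator of the clock, was at 30.3, 103 and 97.5 CPM in CON, UV and Rux. The repressor Bhlhe41 was at 33.7, 16.0 and 10.1 and Nfil3 at 131, 65.1 and 55.3. Klf9, Per1 and Tsc22d3 cycle with the clock in many tissues, the hour at which each animal was killed is not stated, and its part in these differences was not tested.

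The chaperones and cofactors of the receptor were mostly within 1.5-fold in FB-like cells. None of 16 was called for UV over CON, where 7.67% of all genes were lower and 6.46% higher. None was called for Rux over UV either, where 5.28% were lower and 3.14% higher. The medians were -0.07 and -0.05. For Rux over CON 1 of 16 was called lower, where 10.3% of all genes were. This was Fkbp4, the co-chaperone that opposes Fkbp5, at 40.2, 26.97 and 24.9 CPM. Feedback genes of JAK-STAT signalling were lower in FB-like cells, with 6 of 9 called for UV over CON (7.67% of all genes). For Rux over UV 2 of 9 were called lower there, Socs3 (-1.75) and Socs1 (-1.45), where 5.28% of all genes were. In FB-like cells Socs3 was at 945.5, 437 and 130.1 CPM, and Socs1 at 102, 51.1 and 18.7. In KB-like cells 5 of 9 were instead called higher for UV over CON and 0 lower (7.54% and 5.94% of all genes). For Rux over UV 8 of 9 were called lower in KB-like cells (5.82%).

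Outside FB-like cells the responsive genes differed between libraries in other ways. In VEC-like cells Fkbp5 was at 359, 214 and 232 CPM and Zbtb16 at 253, 165 and 141, so that CON was high and both irradiated libraries low. These 2 of 6 tested genes were called lower for UV over CON (6.52% of all genes) and for Rux over CON (12.9%). Cluster 28, led by the venular genes Sele and Selp, made up 44.2% of CON, 18.9% of UV and 29.6% of Rux VEC-like cells, and cluster 12 the remainder. Within cluster 12 the UV over CON ratios were -0.77 for Zbtb16 and -0.56 for Fkbp5, and within cluster 28 they were -0.72 and -0.74. In LEC-like cells UV was the low library: Tsc22d3 was at 116, 85.4 and 166, Zbtb16 at 175, 113 and 191 and Fkbp5 at 154, 125 and 193. These 3 of 7 were called higher for Rux over UV, where 6.4% of all genes were, with Tsc22d3 at 0.96, and Zbtb16 was called lower for UV over CON (-0.63), where 4.58% were. In PCY-like cells 1 of 6 tested genes, Fkbp5 (0.66), was called higher for Rux over UV, where 7.68% of all genes were. For Rux over CON it was Tsc22d3 (0.79), again 1 of 6, which is no more than the 16.8% of all genes.

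SCH-like cells had the highest Rux over CON ratios of Zbtb16 and Fkbp5 among the 9 classes, from 145, 185 and 105 cells. Zbtb16 was at 70.5, 78.6 and 191 CPM in CON, UV and Rux, from 28, 46 and 73 UMIs, and Fkbp5 at 55.4, 82.0 and 157, from 22, 48 and 60 UMIs. Tsc22d3 was at 196, 299 and 372 and Sgk1 at 217, 239 and 380.04. CON had the lowest and Rux the highest level for all 4 genes, although the UV over CON intervals of Zbtb16, Fkbp5 and Sgk1 included 0, and 4 of 6 tested genes were called higher for Rux over CON, where 15.7% of all genes were. For Rux over UV 3 of 6, Zbtb16, Fkbp5 and Sgk1, were called higher (13.5% of all genes). For UV over CON only Tsc22d3 was, 1 of 6, which is near the 14.8% of all genes. Thinned to 2000 UMIs, 14.1%, 9.85% and 38.6% of SCH-like cells had a Zbtb16 UMI, against 0.673%, 0.447% and 1.06% of HF-like cells (unthinned 16.6%, 18.9% and 45.7% against 9.40%, 6.83% and 12.4%, at SCH-like median depths of 2499, 2668 and 3312 UMIs), so that the thinned share was lower in UV than in CON. Markers of other cell types moved between the same libraries. The largest sum in SCH-like cells was that of the 8 fibroblast markers, at 2063, 2319 and 2783 CPM. Free fibroblast RNA at the Col1a1 ratio would give these cells 16.5, 17.8 and 28.8 Zbtb16 CPM. The 12 myeloid markers summed to 319.9, 502 and 62.9, with 3, 8 and 8 of them at 0. Lyz2 (275, 469.97 and 23.6) made up most of that sum in CON and UV but not in Rux. The 6 neutrophil markers summed to 164, 140.1 and 435. The part of other cell types and free RNA in the result was not tested.

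MYE-like and HF-like cells went the other way. In MYE-like cells Zbtb16 (37.5, 17.5 and 16.6 CPM), Klf9 (125, 87.0 and 54.7) and Fkbp5 (92.1, 46.2 and 51.5) were lower in Rux than in CON, 3 of 6 tested genes where 19.9% of all genes were. Zbtb16 and Fkbp5 were already lower in UV than in CON (12.2% of all genes), and Klf9 was lower in Rux than in UV (11.6%). Most MYE-like cells of CON (74.9%) and UV (61.3%) lay in cluster 20, led by immunoglobulin and MHC class II genes, and most of Rux (66.9%) in cluster 21, led by Lyz2, Il1b and Chil3. For Rux over CON, Klf9 was at -0.68 within cluster 20 and -1.04 within cluster 21. Fkbp5 was at -0.57 and -0.25, and Zbtb16 at -0.63 in cluster 20 and 0.48 in cluster 21, the latter from 3 and 23 UMIs. In HF-like cells Klf9 (121, 56.9 and 41.3), Tsc22d3 (14.7, 7.98 and 7.87) and Sgk1 (268, 179 and 157) were lower in Rux than in CON, 3 of 5 where 15.8% were. Klf9 and Tsc22d3 were also lower in UV than in CON (8.99%). HF-like Tsc22d3 met the minimum average CPM for a call only through its CON level, since UV and Rux each lay below that minimum. Klf9 was lower in Rux than in CON within each of the 3 HF-like clusters (-1.69, -2.04 and -1.23), whereas Tsc22d3 in cluster 27 was level (-0.04). Sgk1 for Rux over CON was at -0.84 in cluster 24 and -0.42 in cluster 25. In cluster 27 Sgk1 was at 133 CPM in CON and 111 in Rux. Cluster 24 made up 52.3% of CON, 36.3% of UV and 28.3% of Rux HF-like cells.

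In KB-like cells Klf9 was higher instead (264, 386 and 444), called for Rux over CON where 9.62% were, but under a stricter cell filter this ratio turned from 0.75 to -0.13. The class also changed in make-up, with 362, 195 and 104 cells in cluster 16 and 6, 42 and 139 in cluster 38. Within cluster 16 Klf9 was at 278, 504 and 681, and within cluster 37, also KB-like, at 221, 223 and 189. LYM-like Sgk1 was at 109, 58.8 and 55.4, and LYM-like Tsc22d3 at 110.1, 125 and 170.1. Between Rux and CON both were called, Sgk1 lower (-0.97) and Tsc22d3 higher (0.63), where 16.7% and 8.53% of all genes were. LYM-like Zbtb16 was also lower (-0.68), and for UV over CON Klf9 (-0.63) and Sgk1 (-0.88) were, where 13.2% of all genes were. Cluster 33, led by Gzmc and Xcl1 and with the gamma-delta T cell receptor gene Trdc among its leading genes, made up 45.3% of CON, 23.6% of UV and 18.3% of Rux LYM-like cells, and Trdc was at 997, 119 and 149 CPM in the class. Within cluster 33 Sgk1 was at 175, 61.2 and 65.6, and within cluster 17, which held the remaining cells, at 49.8, 57.6 and 51.5. Tsc22d3 for Rux over CON was at 0.74 in cluster 17 and 0.06 in cluster 33.

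In a pair of the 11 unnamed clusters, described for this reason, most of the 7 genes were higher in the irradiated libraries than in CON. Others differed: for UV over CON all 7 were below 0 in cluster 5, none called, and 3 of 6 were called lower in cluster 10 (13.2% of all genes). Cluster 11, led by Lrrc15 and Col11a1 with the contractile gene Acta2, had 117, 178 and 483 cells. Its highest-scoring marker list was that of fibroblasts, with all 8 markers detected, but it is not among the FB-like clusters. There Tsc22d3 was at 153, 287 and 523 CPM, Zbtb16 at 31.7, 56.7 and 141 and Sgk1 at 224, 436 and 623. Rux was highest and CON lowest for these 3, and 6 of 7 genes were called higher for Rux over CON, where 16.7% of all genes were. For UV over CON 5 were (15.5% of all genes) and for Rux over UV 3 (3.99%). Cluster 14, led by Adgrb3, Lingo2 and Hhip, had 4 of 7 called higher for Rux over CON, where 17.8% were, among them Fkbp5 at 68.0, 164 and 223 and Tsc22d3 at 124, 223 and 375. There 5 were called higher for UV over CON (12.6%) and 2 for Rux over UV (7.45%). Sgk1 of cluster 14 was at 208, 265 and 188 and was not called. Hsd11b1 was low in CON in both clusters, at 3.52, 15.1 and 30.5 in cluster 11 and 4.36, 30.1 and 38.2 in cluster 14.

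Over all keratinocyte clusters together, only Tsc22d3 was called, with 42.6 CPM in CON, 25.6 in UV and 39.3 in Rux, lower for UV over CON (1 of 6, where 3.49% of all genes were) and higher for Rux over UV (1 of 6, where 2.74% were). Cluster 10, led by Krt1 and Krt10, held 727 CON, 29 UV and 94 Rux cells and 1925 of the 3688 CON UMIs of Tsc22d3. Without it the levels were 23.8, 24.5 and 34.2 and neither ratio reached 1.5-fold (0.04 for UV over CON and 0.48 for Rux over UV). Across the skin, UV was thus the low library for Tsc22d3 in FB-like cells. There, weighting by CON subclusters brought the ratio to -0.04, although 4 of 8 subclusters had an interval below 0. UV was also the low library in LEC-like, VEC-like and KB-like cells, none of them called for UV over CON (VEC-like -0.40). Of the KB-like clusters, only cluster 37 had its low value in UV (82.3, 61.7 and 94.7). Cluster 16 was at 94.0, 103 and 191 and cluster 38 at 11.3, 13.9 and 14.8, the first of these from 1 UMI in 6 cells. SCH-like, LYM-like and PCY-like cells (PCY-like 96.6, 132 and 167) had their low value in CON.

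**Figure D5:**
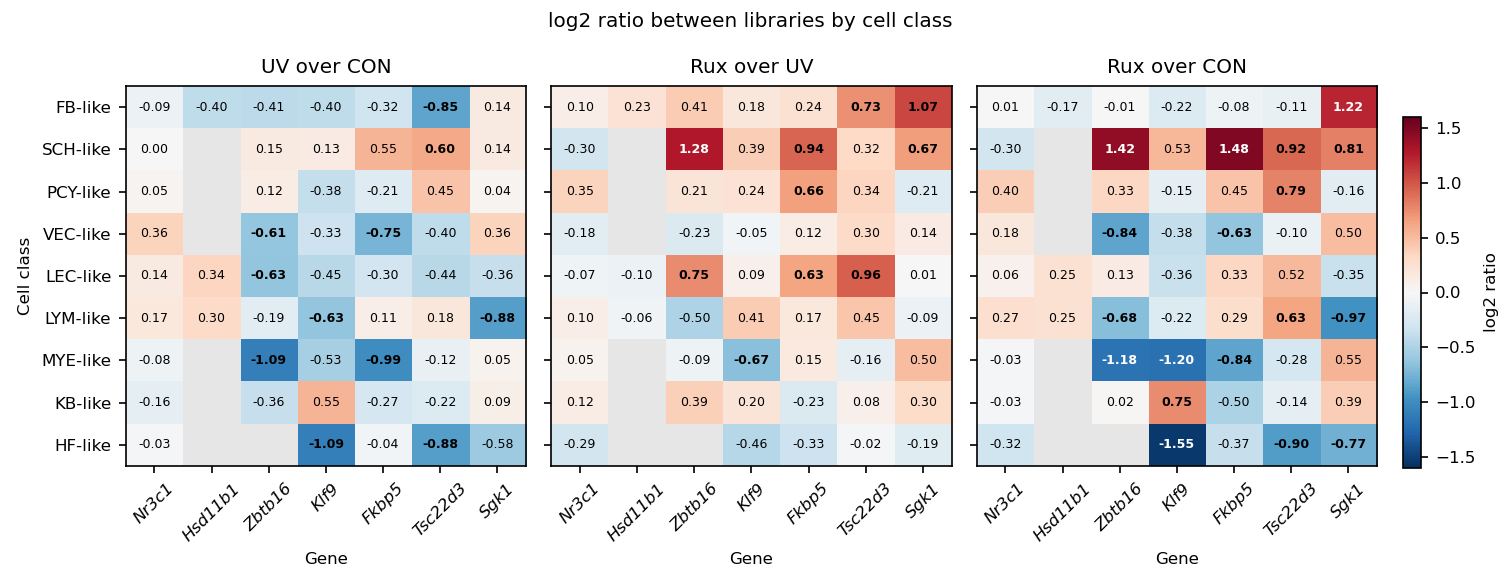
log2 ratios of the 7 genes between libraries in 9 cell classes (colour and numbers, bold at 1.5-fold or more; grey, under 10 CPM on average). SCH-like cells hold the highest ratios of Zbtb16 (1.42) and Fkbp5 (1.48) for Rux over CON, and HF-like Klf9 the lowest (-1.55).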

How the data were processed

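Single-cell suspensions were sequenced with the 10x 3′ v3.1 chemistry, and the authors deposited filtered matrices of raw UMI counts per gene and cell (Cell Ranger 6.1.2 per the labels, 7.0.0 per the file headers; mm10). Barcodes under 200 genes or over 10% mitochondrial UMIs were dropped, and the highest Scrublet scores (scanpy 1.11.5) were removed at 0.8% per 1000 cells, since the automatic threshold called 0, 0 and 238 cells in CON, UV and Rux. Seurat 5.3.0 clustered the cells on 1992 variable genes, with all listed genes left out, and 30 components at resolution 1.5, without batch correction. Of 43 clusters 11 stayed unnamed. The naming rule was set after the clusters were seen, so class names are rebuilt and not the authors'. Counts were summed per class and library and scaled to CPM. log2 ratios used 0.5 added UMIs. Intervals were exact Poisson for levels and Clopper-Pearson for ratios and shares, and floors used 3 UMIs. FB-like subclusters used 20 components at resolution 0.5. Only the calculation of ratios and their intervals was tested on simulated data, drawn from summed FB-like counts with counting error alone. Filtering, clustering, naming, thinning and weighting were not. Members and gene lists were chosen with earlier results of these data known. Named genes were all 7 members, at most the 3 highest and 3 lowest ratios per list in FB-like cells plus Nr3c2, Hsd11b2, H6pd, Per1 and Fkbp4, the 3 genes most like each member, leading genes of clusters, and genes for the checks of sex and free RNA. With 1 library per condition no p-value was computed.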

Additional observations from a re-analysis of the deposited data

Results flagged for a closer look

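Opposite differences between cell classes drew attention for 5 of the 7 genes. In each case 1 class was at least 1.5-fold higher and another at least 1.5-fold lower in the same comparison. With 1 library per condition, the difference between classes was not tested. For Tsc22d3 the ratio of UV over CON was 0.60 in SCH-like and -0.88 in HF-like cells, a gap of 1.48 on the log2 scale. For Rux over CON the gap of Tsc22d3 was 1.81, between SCH-like (0.92) and HF-like cells (-0.90). HF-like Tsc22d3 was near the minimum level for a call, with UV and Rux each below that minimum.

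Zbtb16 had the widest gap, 2.60, between SCH-like (1.42) and MYE-like cells (-1.18) for Rux over CON. Fkbp5 differed by 2.32 between the same classes (1.48 and -0.84). Klf9 differed by 2.30 between KB-like (0.75) and HF-like cells (-1.55), but the KB-like value turned to -0.13 under the strict cell filter, and the largest KB-like cluster was 16 in CON and 38 in Rux. Sgk1 differed by 2.19 between FB-like (1.22) and LYM-like cells (-0.97), where it was at -1.41 in cluster 33 and 0.04 in cluster 17. The MYE-like values above combine cluster 20, which held most CON cells, with cluster 21, which held most Rux cells.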

How the results depend on the processing

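In FB-like cells, 21 ratios (7 genes in 3 comparisons) kept their side of 1.5-fold under 11 of 12 alternatives to clustering, cell filters, scaling and cell choice, the last including 4 chosen after seeing the data. The exception weighted the subclusters as in CON: 2 ratios no longer reached 1.5-fold and 4 newly did. Under it 0 members were lower for UV over CON and 3 were higher for Rux over CON. The shares of all genes given above do not apply to this weighting. With 2-fold in place of 1.5-fold, 0 members were lower for UV over CON and 1 was higher for Rux over UV. Of 147 ratios in other classes, between 125 (no doublet removal) and 147 kept their side, and Klf9 for Rux over CON in KB-like cells reversed to -0.13 under the strict cell filter. Without cluster 10, an alternative chosen after seeing the data, Tsc22d3 for UV over CON over all keratinocyte clusters reversed from -0.73 to 0.041, and that cluster held 727 CON and 29 UV cells. Ratios within single clusters of a class were also added after seeing the data. Causes were not tested. No paired analysis was possible because each condition has 1 library, and no replicate could be left out. Several SCH-like and neutrophil-like values rest on under 100 UMIs, which limits their precision.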
